A study of Mus musculus with 16 samples.

Results

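The 10 genes described here encode enzymes that turn cholesterol into conjugated bile acids: Cyp7a1, Cyp7b1, Cyp8b1, Cyp27a1, Cyp39a1, Hsd3b7, Akr1d1, Baat, Slc27a5 and Amacr. They were taken from the array table by gene symbol, 10 of 19505 genes, and each was measured by 1 probe set, the group of probes that reads 1 transcript cluster. The data are microarray profiles of RNA from liver biopsies of C57BL/6 mice, 8 labelled as control and 8 from a mouse model of NASH, nonalcoholic steatohepatitis, in which a fatty liver is also inflamed. No treated group was among the samples analysed here. Neither the means of inducing the NASH model nor the keeping of the controls is in the labels, and they give no genetic change, sex, age, time of collection or batch. Samples carry the numbers of their labels (control 1, 3, 4, 5, 6, 7, 9 and 10, and NASH model 1a, 1b and 2 to 7). They are listed separately, but whether each is a separate animal is not stated, so p-values here reflect the spread among samples, which may be technical.

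Bile acids are made in hepatocytes by 2 routes. The classic route starts with Cyp7a1 in the endoplasmic reticulum, and the alternative route starts with Cyp27a1 in mitochondria and continues with Cyp7b1. Shared enzymes then change the steroid ring and shorten the side chain, and the acid is joined to taurine or glycine before export. Bile acids restrain their own synthesis through the nuclear receptor FXR (Nr1h4), which induces the repressor SHP (Nr0b2) in the liver and FGF15 in the gut, and FGF15 signals back through Fgfr4 and its partner Klb.

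Promoter sequences from RefSeq (GRCm38.p6) were at hand for 4 of the 10 genes, each covering 250 bases before and 50 bases after an annotated start. Hsd3b7, Akr1d1 and Cyp8b1 are printed because each holds a match to a motif searched here, among them that of Nr5a2 (LRH-1), a nuclear receptor known as an activator of bile acid synthesis. Capitals mark the matches, and each sequence runs 5′ to 3′ in the direction of its gene.
Cyp8b1, chr9:121916256-121916555, minus strand: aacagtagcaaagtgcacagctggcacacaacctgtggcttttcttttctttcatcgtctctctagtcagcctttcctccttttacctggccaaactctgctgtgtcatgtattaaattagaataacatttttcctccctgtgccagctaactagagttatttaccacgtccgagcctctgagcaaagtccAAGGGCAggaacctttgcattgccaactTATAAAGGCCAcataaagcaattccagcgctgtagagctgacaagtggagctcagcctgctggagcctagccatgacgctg
Hsd3b7, chr7:127800359-127800658, plus strand: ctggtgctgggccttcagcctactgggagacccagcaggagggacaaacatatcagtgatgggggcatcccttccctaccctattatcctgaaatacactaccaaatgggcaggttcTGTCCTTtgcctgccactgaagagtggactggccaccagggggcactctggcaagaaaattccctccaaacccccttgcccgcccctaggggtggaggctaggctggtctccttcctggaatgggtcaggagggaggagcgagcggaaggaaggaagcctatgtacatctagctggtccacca
Akr1d1, chr6:37529923-37530222, plus strand: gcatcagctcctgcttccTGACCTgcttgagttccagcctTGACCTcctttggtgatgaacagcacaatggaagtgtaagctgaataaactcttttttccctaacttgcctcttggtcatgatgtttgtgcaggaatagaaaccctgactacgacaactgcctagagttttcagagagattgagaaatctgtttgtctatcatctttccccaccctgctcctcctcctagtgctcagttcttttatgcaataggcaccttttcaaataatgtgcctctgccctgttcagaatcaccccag
The 4 motifs searched on both strands were AAGGNCA (LRH-1 type), the nuclear receptor half-site AGGTCA, which overlaps the first when preceded by A as AAGGTCA does, the E-box CACGTG and the TATA box TATAAA. The LRH-1-type letters stood 59 and 27 bases before the Cyp8b1 start, the nearer one overlapping a TATAAA 31 bases before it, and 133 bases before the Hsd3b7 start on the opposite strand. Akr1d1 held the half-site 232 and 210 bases before its start, both on the opposite strand, and Cyp27a1 held none of the 4 motifs in this window. Among 32851 mouse promoters of the same length, 20.3% held AAGGNCA, 16.3% AGGTCA, 7.15% CACGTG and 13.6% TATAAA, so single matches are frequent. Binding was not measured.

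In the NASH model 7 of the 10 enzymes fell, 1 rose and 2 did not pass the test. Cyp7b1, Cyp27a1, Hsd3b7, Akr1d1, Amacr, Slc27a5 and Baat fell, Cyp39a1 rose, and Cyp7a1 and Cyp8b1 did not pass. A gene was called at a limma adjusted p under 0.05 (Benjamini-Hochberg over all genes), which 26.6% of all genes met, 13.4% as lower and 13.2% as higher. Among the enzymes 80% were called, and their median difference was -0.69 on the log2 scale against -0.04 over all genes. The 8 values of each group did not overlap for 5 enzymes that fell and 1 that rose, against 3.89% and 5.65% of all genes. All differences are NASH model minus control in log2 intensity, where 1 unit is a doubling, and errors are standard errors (SE) unless called SD. No enzyme was near the background floor of 2.89, the 95th percentile of olfactory and vomeronasal receptor genes. In bulk tissue, fewer cells of a type and less RNA per cell cannot be told apart.

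**Figure D1:**
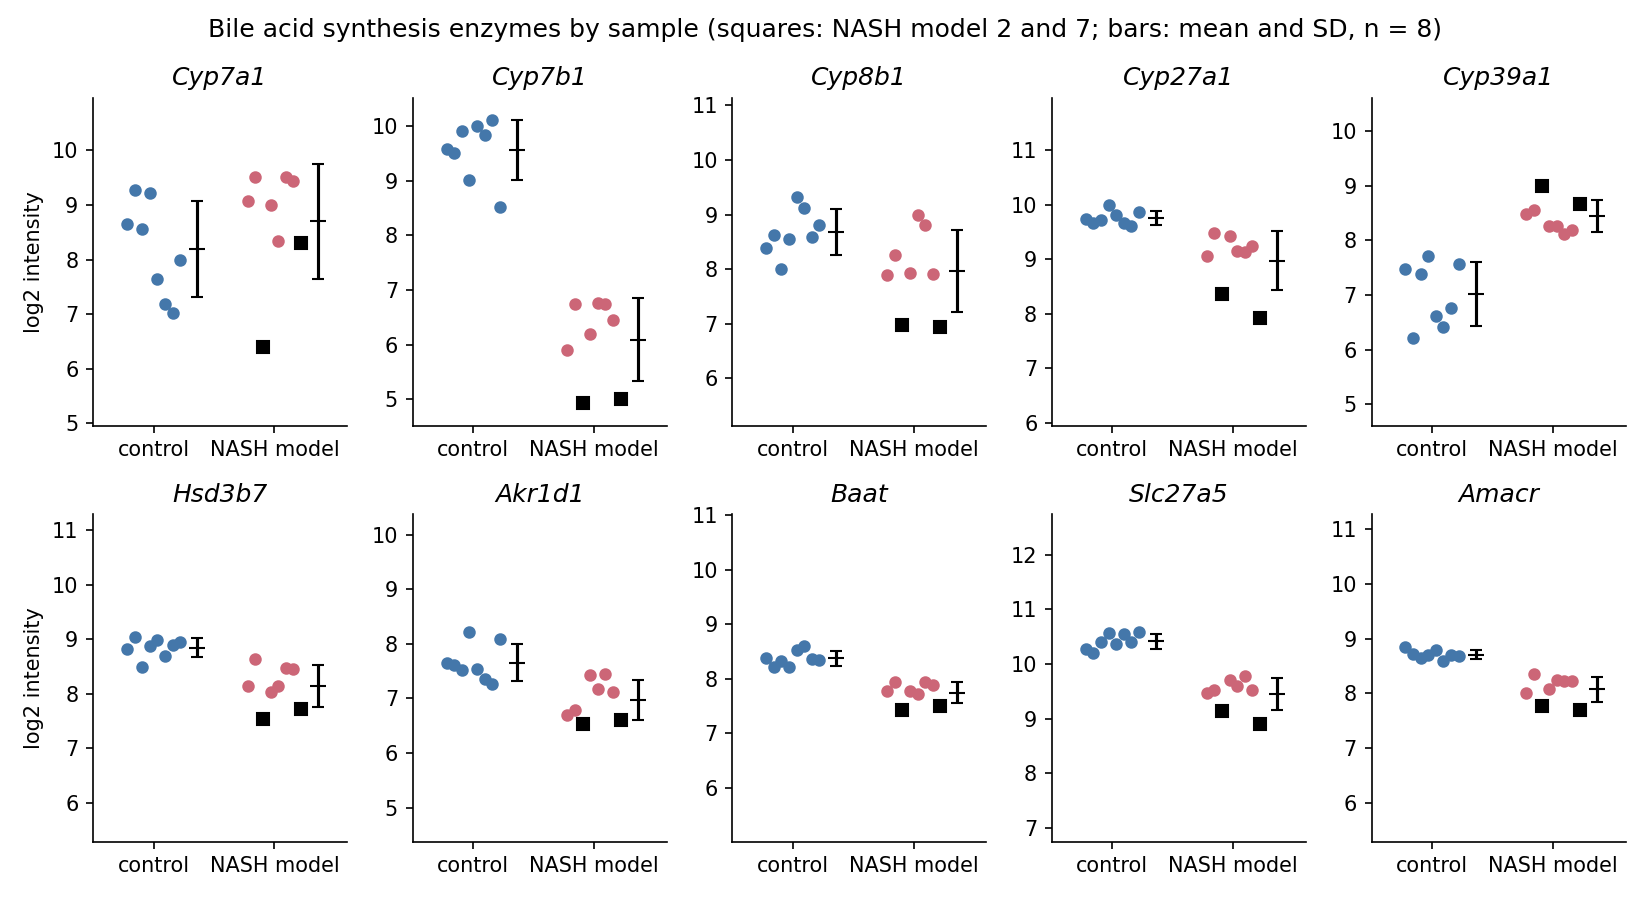
Log2 intensity (y axis, each panel spanning the same number of log2 units) of the 10 enzymes in every sample, controls in blue and NASH model samples in red or, for NASH model 2 and 7, as black squares, with the mean and SD of each group of 8 at the side. Cyp7b1 shows the widest gap between the groups, Cyp39a1 is the enzyme whose NASH model samples all lie above the controls, and Cyp7a1 spreads over more than 2 log2 units in both groups.

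Cyp7a1, the rate-limiting 7α-hydroxylase of the classic route, ran in the controls from 7.02 (control 9) through a median of 8.28 to 9.27 (control 3). In the NASH model it ran from 6.40 (NASH model 2) through a median of 9.04 to 9.52 (NASH model 5). The groups overlapped, and the lowest and the highest of all 16 values were both NASH model samples. The difference of 0.50 ± 0.42 (95% interval -0.37 to 1.38, n = 8 and 8) did not pass (limma adjusted p = 0.43), so a change between a small fall and more than a doubling lies within the interval. Without NASH model 2 the difference was 0.83 (adjusted p = 0.075), and without NASH model 2 and 7 it was 0.95 ± 0.34 (adjusted p = 0.054).

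The ring-modifying enzymes of the shared route moved down by less than 1 log2 unit. Hsd3b7, which oxidises the 3β-hydroxyl group after 7α-hydroxylation, ran from 8.49 through 8.89 to 9.04 in the controls and from 7.54 through 8.14 to 8.64 in the NASH model. Of the NASH model samples, only 1b lay above the lowest control, control 4. Its fall of -0.70 ± 0.14 passed (adjusted p = 8.4e-04). Akr1d1, the Δ4-3-oxosteroid 5β-reductase that bends the steroid ring, ran from 7.26 through 7.57 to 8.21 in the controls and from 6.53 through 6.96 to 7.45 in the NASH model. The groups overlapped through NASH model 3 and 5, and the fall of -0.68 ± 0.16 passed (adjusted p = 0.0037).

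Cyp8b1, the 12α-hydroxylase that sets the share of cholic acid, ran from 8.00 through 8.61 to 9.32 in the controls and from 6.95 through 7.92 to 8.99 in the NASH model. NASH model 4, 5 and 1b lay within the control range, and NASH model 2 and 7 were the lowest. The difference of -0.71 ± 0.27 (95% interval -1.27 to -0.16) missed the threshold narrowly (adjusted p = 0.054). It passed in 6 of 29 alternative analyses, with adjusted p from 0.015 without NASH model 4 to 0.54 with a clock score as a covariate, and without NASH model 2 and 7 it was -0.38 ± 0.22 (adjusted p = 0.24).

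The alternative route held the extreme change. Cyp7b1, the oxysterol 7α-hydroxylase, ran from 8.52 (control 10) through 9.71 to 10.11 in the controls and from 4.93 (NASH model 2) through 6.32 to 6.76 in the NASH model. The lowest control stood well above the highest NASH model sample. The fall of -3.47 ± 0.29 was 11.1-fold (95% interval -4.08 to -2.87 on the log2 scale, adjusted p = 2.5e-08), the 8th lowest difference of all 19505 genes and the lowest of 99 cytochrome P450 genes. Cyp27a1, the mitochondrial sterol 27-hydroxylase that opens this route and also serves the side chain of the classic route, ran narrowly from 9.61 through 9.73 to 9.98 in the controls. In the NASH model it ran from 7.92 (NASH model 7) through 9.14 to 9.48, without overlap. Its fall of -0.79 ± 0.18 passed (adjusted p = 0.0026). Without NASH model 2 and 7 the fall was -0.51 ± 0.09, smaller but still called (adjusted p = 7.3e-04).

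Cyp39a1, a 7α-hydroxylase with a preference for 24-hydroxycholesterol, the oxysterol formed in brain, moved the other way. It ran from 6.21 through 7.08 to 7.71 in the controls and from 8.11 through 8.38 to 9.005 in the NASH model. All 8 NASH model samples were above all controls. The rise of 1.42 ± 0.21 was 2.68-fold (adjusted p = 2.9e-05).

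The 3 genes of the late steps all fell, each without overlap between the groups. Amacr, the racemase that turns the side chain of the C27 intermediates for peroxisomal oxidation, ran from 8.58 through 8.70 to 8.86 in the controls and from 7.70 through 8.14 to 8.35 in the NASH model, a fall of -0.64 ± 0.10 (adjusted p = 5.2e-05). Slc27a5, the bile acid-CoA ligase that activates the acid for conjugation, ran from 10.21 through 10.40 to 10.59 and from 8.90 through 9.52 to 9.78, a fall of -0.97 ± 0.12 (adjusted p = 3.2e-06). Baat, the transferase that joins the activated acid to taurine or glycine, ran from 8.21 through 8.35 to 8.60 and from 7.43 through 7.77 to 7.94, a fall of -0.63 ± 0.10 (adjusted p = 4.5e-05). In fold terms these falls lay between 1.54 and 1.95.

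**Figure D2:**
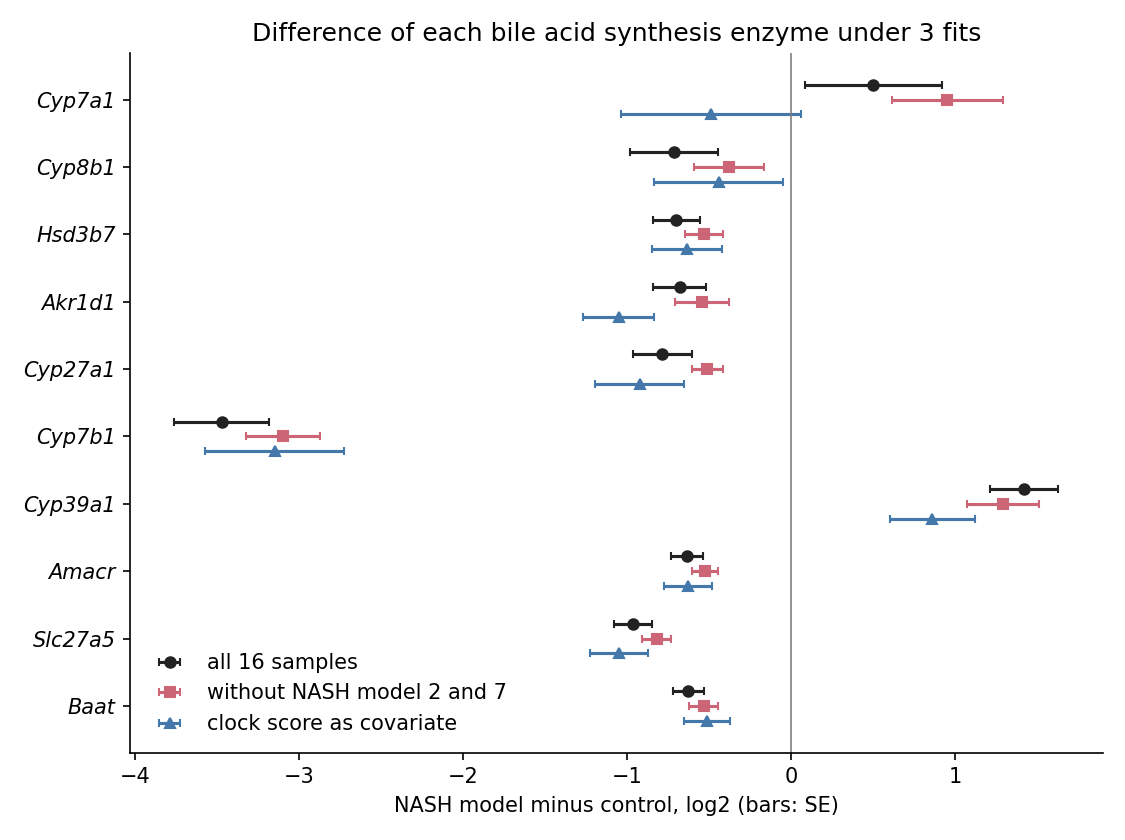
NASH model minus control difference (log2, x axis) with its SE for each enzyme, fitted with all 16 samples (black circles), without NASH model 2 and 7 (red squares) and with the clock score as a covariate (blue triangles). Cyp7b1 lies near -3 in all 3 fits, Cyp39a1 stays above 0, and Cyp7a1 moves from 0.50 to 0.95 and -0.49.

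Whether enzymes changed by unequal amounts was tested on the difference between their log2 values within each array, for 5 pairs, with an exact two-sided permutation test over all regroupings of the 16 samples and Benjamini-Hochberg adjustment over the 5. The 2 enzymes of the alternative route changed unequally, since Cyp7b1 fell by a further -2.69 ± 0.26 log2 units relative to Cyp27a1 (exact adjusted p = 0.000258). The 7α-hydroxylases also parted. Relative to Cyp7a1, Cyp7b1 changed by -3.98 ± 0.49, and relative to Cyp7b1, Cyp39a1 changed by 4.90 ± 0.50. The exact adjusted p was 0.000258 for each, the raw p of 0.000155 being the smallest these permutations can give. For these 3 pairs the groups did not overlap. For Cyp39a1 and Cyp7b1 that outcome was fixed in advance, because each gene alone separated the groups, in opposite directions. The test of that pair therefore adds nothing to the results of the single genes. Among the conjugating enzymes log2 intensity fell by more for Slc27a5 than for Baat, with a difference of -0.34 ± 0.09 (exact adjusted p = 0.00136) and overlapping groups. For all 5 pairs each enzyme was read by 1 probe set, and whether 2 probe sets respond alike to RNA was not tested. Cyp8b1 relative to Cyp7a1 changed by -1.22 ± 0.51 (exact adjusted p = 0.034), with overlapping groups. That last call was lost in 9 of 16 analyses that left out 1 sample, namely control 6, 7, 9 or 10 or NASH model 1a, 1b, 3, 6 or 7 (highest adjusted p = 0.064), and without NASH model 1a and 1b together.

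Within the NASH model group NASH model 2 and 7 stood at one end for every enzyme. They were the lowest pair in 9 of the 10 enzymes, and in Cyp39a1 they were the highest pair, at 9.005 and 8.67 against 8.11 to 8.56 in the other 6. For Cyp7b1 they stood at 4.93 and 5.01 against 5.89 to 6.76, and for Cyp27a1 at 8.37 and 7.92 against 9.06 to 9.48. The SD of the NASH model group was 4.38 times that of the controls for Cyp27a1 and 0.511 times for Cyp39a1, the extremes of the 10. Without NASH model 2 and 7 these ratios were 1.35 and 0.299, and the ratio was below 1 for 6 of the 10 enzymes, against 1 of 10 with all samples. Lower ratios follow from the omission itself, which took the end samples from 1 group and left all controls in. They do not show that the other 6 vary less than the controls. In the fit without them 7 enzymes fell and 1 rose, and 22% of all genes were called. On the first principal component of all genes, which held 45.3% of the variance, NASH model 2 and 7 lay farthest from the controls, at 45.9 and 49.6 against 24.2 to 37 in the others.

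Pairwise correlations over the 8 samples of a group were computed for all 45 pairs in each group, with exact permutation p over all pairings and adjustment over the 90. In the NASH model 36 of 45 Pearson coefficients were positive, with a median of 0.74, and 14 pairs passed by Pearson's r but 4 by Spearman's rho. In the controls 25 of 45 were positive, with a median of 0.08, and 2 pairs passed by Pearson's r and 0 by Spearman's rho (3 had an unadjusted Pearson p under 0.05). Without NASH model 2 and 7 the median over the 45 pairs was 0.17, against 0.74 with them. The difference between the groups in correlation was not tested. Pairs of other genes were not correlated, so these counts and medians have no background. Whether they are particular to these enzymes was not tested.

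Cyp7a1 and Baat were the pair with the lowest p in the NASH model (r = 0.90, rho = 0.98, exact adjusted p = 0.0067 and 0.026), and r was 0.91 without NASH model 2 and 7 (exact p = 0.0042). In the controls the same pair had r = -0.78 and rho = -0.71 (exact adjusted p = 0.072 and 0.23). Cyp7a1 and Hsd3b7 had r = 0.88 and rho = 0.95 (exact adjusted p = 0.013 and 0.026), with r = 0.76 without these samples (exact p = 0.039). Cyp7b1 and Cyp8b1 had r = 0.93 and rho = 0.95 (exact adjusted p = 0.012 and 0.026), with r = 0.77 without them, which did not pass over the other 6 samples (exact p = 0.082). Cyp7b1 and Amacr had r = 0.98 and rho = 0.86 (exact adjusted p = 0.013 and 0.11), with r = 0.90 without them (exact p = 0.015). Hsd3b7 and Baat had r = 0.97 and rho = 0.90 (exact adjusted p = 0.013 and 0.082), with r = 0.96 without NASH model 1b and 2, the samples farthest from the median of Hsd3b7 (exact p = 0.0097). These pairs had the lowest Pearson p of the 14 that passed. Akr1d1 and Slc27a5 also passed by both (r = 0.84, rho = 0.95, exact adjusted p = 0.038 and 0.026), with r = 0.75 without NASH model 3 and 5 (exact p = 0.083). For each pair the 2 samples left out were those farthest from the median of the enzyme named first. They differ between pairs, so the resulting r values cannot be compared across pairs with different omissions. Cyp27a1 and Slc27a5 went from r = 0.91 to 0.07 without NASH model 2 and 7, and Hsd3b7 and Amacr from 0.92 to 0.86 without NASH model 1b and 2. In the controls Cyp27a1 and Akr1d1 (r = 0.91, rho = 0.81) and Cyp7b1 and Akr1d1 (r = -0.90, rho = -0.86) passed by Pearson's r (exact adjusted p = 0.024 and 0.038) but not by rho (0.15 and 0.11). Without control 5 and 10, r was 0.62 and -0.72 and did not pass over the other 6 controls (exact p = 0.20 and 0.11).

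**Figure D3:**
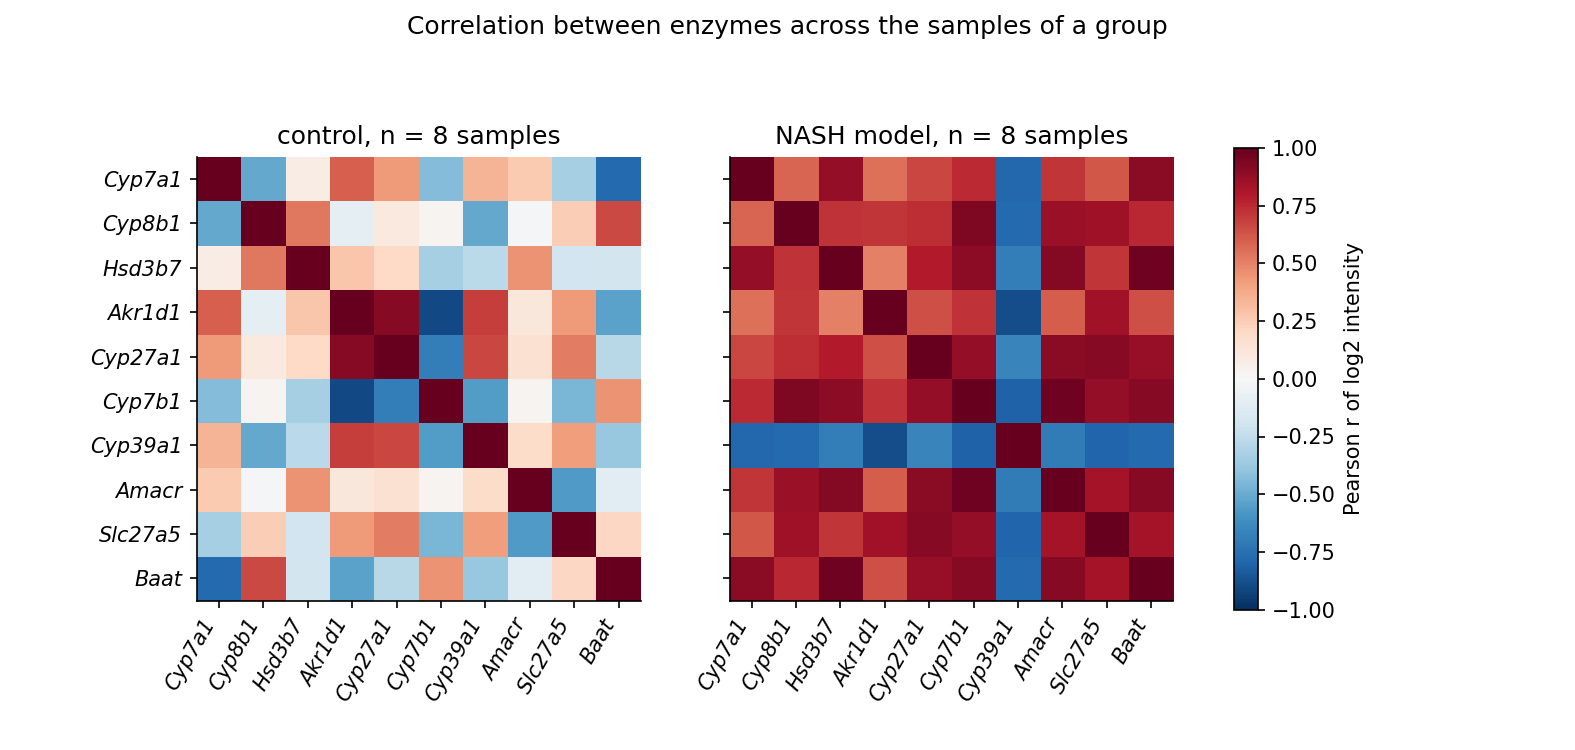
Pearson correlation of log2 intensity between each pair of enzymes over the 8 controls (left) and the 8 NASH model samples (right), from blue at -1 to red at 1. The NASH model panel is mostly red except for Cyp39a1, with a median r of 0.74, while the control panel holds both colours, with a median r of 0.08.

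Cyp7a1 is known for a daily rhythm in liver, and the clock genes differed between samples. Of 17 measured clock genes 5 rose and 6 fell, Arntl by -1.79 ± 0.35 and Nfil3 by -1.36 ± 0.19, while Ciart rose by 1.48 ± 0.43 (adjusted p = 5.8e-04, 1.4e-05 and 0.013). A clock score per sample, the first within-group component of these genes (59.1% of their within-group variance), ran from -3.62 to 2.54 in the controls and from 1.06 to 2.38 in the NASH model. The 3 controls with the lowest score, control 9, 7 and 6, also held the 3 lowest control values of Cyp7a1, at 7.02, 7.18 and 7.65. Control 3, with the next lowest score (-2.17), held the highest control value (9.27). NASH model 1b had the lowest score of its group and the second highest Cyp7a1 (9.51). NASH model 2, with the next lowest score of that group (1.24), had the lowest Cyp7a1. The relation of the score to Cyp7a1 was not tested in either group. All controls except control 5 scored below every NASH model sample, so the score overlaps with the group. As a covariate it can take up part of the group difference, and it widened errors, as for Cyp7b1 from 0.29 to 0.43. A call lost in that fit therefore cannot be credited to the clock. With the score as a covariate Cyp7a1 changed sign to -0.49 ± 0.55 (adjusted p = 0.64), and the call of Hsd3b7 was lost at a similar size (-0.63 ± 0.21, adjusted p = 0.055). Cyp39a1 shrank to 0.86 ± 0.26 (adjusted p = 0.032) and Akr1d1 deepened to -1.05 ± 0.22 (adjusted p = 0.0026), both still called. In that fit 6 enzymes fell and 1 rose, and 14.2% of all genes were called. Time of collection is not in the labels, and its part in these results was not tested.

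**Figure D4:**
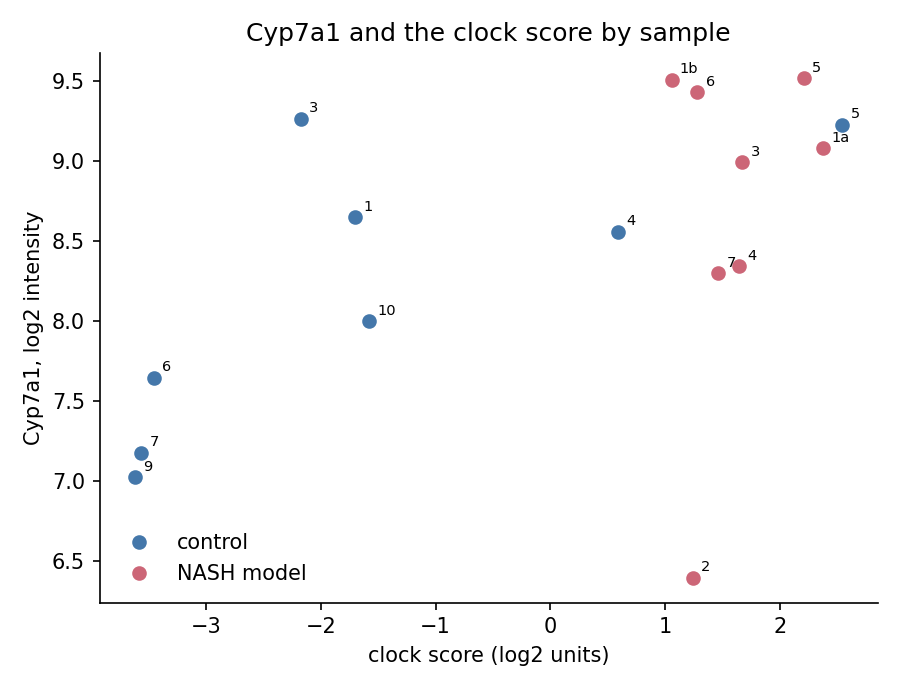
Cyp7a1 (log2 intensity, y axis) against the clock score (log2 units, x axis) in the 8 controls (blue) and 8 NASH model samples (red), each point labelled with its sample number. Controls 6, 7 and 9 lie low on both axes, the NASH model scores lie between 1.06 and 2.38, and NASH model 2 has the lowest Cyp7a1 of all samples, at 6.40.

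Genes that carry out other steps of bile acid synthesis also moved down more often than up: of 12 measured, 7 fell, 1 rose and 4 did not pass, with a median of -0.33. Cyp2c70, the mouse hydroxylase that makes muricholic acids, ran without overlap and fell by -1.77 ± 0.16 (adjusted p = 7.7e-08). Akr1c14, a 3α-hydroxysteroid dehydrogenase, fell by -0.94 ± 0.16 (adjusted p = 1.3e-04). Ch25h, the cholesterol 25-hydroxylase, rose by 0.50 ± 0.14 (adjusted p = 0.0092), but 7 of 8 controls and 2 of 8 NASH model samples were below the background floor, so its change is close to what the array can measure. With the clock score as a covariate 3 of the 12 fell and 0 rose by limma, while calls over all genes dropped from 26.6% to 14.2%. Of the electron donors of P450 enzymes, Cyb5a (0.15 ± 0.08) and Fdx1 (-0.33 ± 0.14) did not pass (adjusted p = 0.18 and 0.092), although 1 of them was called lower or higher under 4 alternatives. Por and Fdxr are not analysed here.

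**Figure D5:**
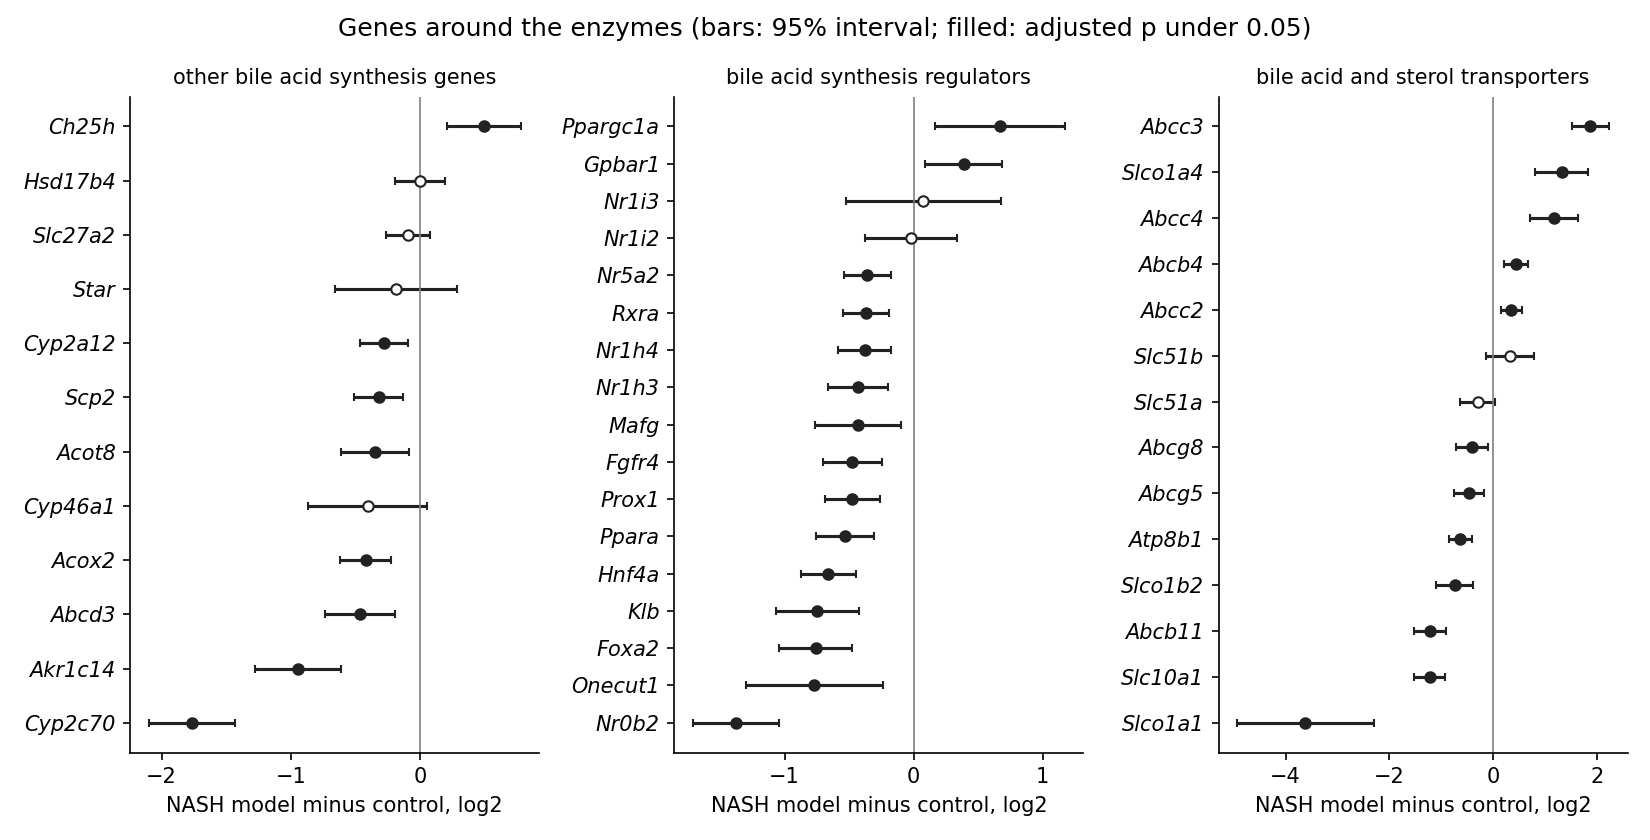
NASH model minus control difference (log2, x axis) with its 95% interval for other bile acid synthesis genes, regulators and transporters, where filled points passed the test and open points did not. Regulators lie mostly left of 0, with Nr0b2 lowest at -1.37, while transporters run from Slco1a1 at -3.62 to Abcc3 at 1.88.

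Of 17 measured regulators of bile acid synthesis 13 fell, 2 rose and 2 did not pass, with a median of -0.43. With the clock score as a covariate 8 fell, in a fit that called 14.2% of all genes against 26.6% without the score. Nr0b2, the SHP repressor, ran from 7.18 through 8.09 to 8.42 in the controls and from 6.31 through 6.61 to 6.82 in the NASH model, without overlap, and fell by -1.37 ± 0.16 (adjusted p = 2.0e-06). Its inducer Nr1h4 (FXR) fell by -0.38 ± 0.10 (adjusted p = 0.0066), with overlapping groups. Hnf4a, a hepatocyte factor that activates Cyp7a1 and Cyp8b1, ran from 9.45 through 9.75 to 9.96 in the controls and from 8.70 through 9.07 to 9.27 in the NASH model, and fell by -0.66 ± 0.10 without overlap (adjusted p = 5.4e-05). Of the hepatocyte factors, Foxa2 also fell by -0.76 ± 0.14 and Onecut1 by -0.77 ± 0.25 (adjusted p = 2.7e-04 and 0.029).

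The receptor side of the gut signal was lower as well. Klb fell by -0.75 ± 0.15 (adjusted p = 9.6e-04) and Fgfr4 by -0.47 ± 0.11 (adjusted p = 0.0028), both with overlapping groups. Fgfr4 was not called after centring on spike-in controls (-0.31 ± 0.12, adjusted p = 0.060) or with the clock score (-0.44 ± 0.17, adjusted p = 0.089). Nr5a2 (LRH-1) fell by -0.36 ± 0.09 (adjusted p = 0.0039), and it was not called, at a similar size, after spike-in centring (-0.29 ± 0.11, adjusted p = 0.073) or with a replicate block (-0.34 ± 0.12, adjusted p = 0.077). The 2 regulators that rose, named after their values were seen, were Ppargc1a (0.67 ± 0.24) and Gpbar1 (0.39 ± 0.14), with adjusted p of 0.047 and 0.049, and for Gpbar1 5 controls and 2 NASH model samples were below the background floor. Without NASH model 2 and 7, with the values as deposited, with centring on array medians and with the clock score, 0 regulators passed as higher by limma.

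Transporters that move bile acids, sterols and phospholipid into and out of hepatocytes split, with 5 higher and 7 lower of 14. The uptake carrier Slco1a1 fell by -3.62 ± 0.63 (adjusted p = 2.0e-04), while the basolateral exporter Abcc3 rose by 1.88 ± 0.17 (adjusted p = 9.0e-08) and Slco1a4 rose by 1.32 ± 0.24 (adjusted p = 3.4e-04). The main bile acid uptake carrier Slc10a1 and the canalicular bile salt pump Abcb11, named after their values were seen, fell by -1.22 ± 0.14 each (adjusted p = 2.2e-06 and 2.4e-06). Of the 94 other cytochrome P450 genes 17 rose and 38 fell, with a median of -0.24. Cyp4a12a fell by -2.53 ± 0.40, and Cyp7b1 fell by more than any of the 94.

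Markers of cell types and of sex-biased expression were compared in the same fit, and their part in the enzymes' changes was not tested. General hepatocyte markers averaged 11.86 to 11.90 in the controls and 11.82 to 11.93 in the NASH model. All lay at or above percentile 99.6 of all genes, with NASH model means from 10.89 (F2) to 12.64 (Alb), against a top array value of 12.7. Whether the array understates differences at this level was not tested. At such percentiles Cyp2f2 (99.6) differed by -0.67 and Hsd17b13 (99.7) by 0.61, while Pck1 (99.7) did not pass. The level of the hepatocyte markers was not taken as a measure of the share of hepatocytes, which was not tested. Of the 13 hepatocyte markers, 1 was lower (Fgb, -0.35 ± 0.09) and 0 were higher by limma, and under other scalings 1 to 3 were lower and 0 to 2 higher. Of 8 pericentral markers, genes of hepatocytes around the central vein, where Cyp7a1 is known to be expressed, 4 fell and 0 rose, led by Tbx3 (-1.73 ± 0.26). Their mean level was 8.45 to 8.73 in the controls and 7.32 to 8.41 in the NASH model. Of 6 periportal markers 2 rose and 2 fell.

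Cyp7b1 is known as male-biased and Cyp39a1 as female-biased in mouse liver. Of 12 male-biased liver genes 11 fell, with a median of -2.02, led by Hsd3b5 (-7.07 ± 0.16) and Elovl3 (-5.79 ± 0.47), of which 3 and 2 NASH model samples were below the background floor, where the array compresses differences. Their mean level ran from 9.79 to 10.42 in the controls and from 6.40 to 8.15 in the NASH model. Of 11 female-biased genes 6 rose and 1 fell, among them Cyp2a4 (2.42 ± 0.28). Cyp2b9 was 5.55 ± 0.26 higher, but 5 of 8 controls were below the floor, so this size is uncertain. Their mean level ran from 3.68 to 4.73 in the controls and from 4.64 to 5.87 in the NASH model. With the clock score as a covariate 2 of them rose, in the fit that called 14.2% of all genes.

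Genes of non-hepatocyte cells were mostly higher. Of 12 macrophage markers 11 rose and 1 fell (mean level 4.74 to 5.78 in the controls, 7.98 to 8.32 in the NASH model). Of 11 stellate cell and myofibroblast markers 9 rose (5.50 to 5.98 against 6.89 to 7.52), and of 8 cholangiocyte markers 5 rose (3.30 to 4.08 against 3.58 to 5.91). Of 8 sinusoidal endothelial markers 2 rose and 4 fell (6.20 to 6.74 against 6.05 to 6.38). Cyp27a1 and Ch25h are also expressed in macrophages, and the signal of those cells was not separated from that of hepatocytes.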

How the data were processed

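RNA from 16 mouse liver samples was labelled with biotin and hybridised to 1-colour arrays, with RNA isolated with TRIzol and checked on a Bioanalyzer, per the labels' protocols. The values used are the log2 values for 29129 probe sets that the authors deposited, with values between 0.623 and 12.7 and array medians between 3.52 and 3.66. The normalization behind them, like the genome build of the arrays, is a step not given in the sources used here. The array medians ran from 3.52 to 3.56 in the controls and from 3.58 to 3.66 in the NASH model. A difference in scaling therefore cannot be told apart from the group. As the medians differed by more than a limit of 0.1, the values were quantile-normalized, which moved no value by more than 0.159. The platform annotation gave 19572 probe sets 1 symbol and 9557 none. The 19505 genes were each read from their brightest probe set by mean, and dim genes were kept.

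Groups of 8 and 8 were compared with limma 3.58.1 in R 4.3.3 (lmFit and eBayes, two-sided, Benjamini-Hochberg over all genes, called at adjusted p under 0.05), with the group as the only term. Exact permutation tests and correlations used SciPy 1.17.1 and Python 3.11.15. The background floor of 2.89 is the 95th percentile of 1412 receptor genes. The number of arrays limits the precision. NASH model 1a and 1b share the number 1, and whether they come from 1 animal is not stated. They differed by an SD of 0.387 over genes, within the 0.34 to 0.466 of NASH model pairs, which cannot settle this. Both were kept as separate samples.

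The members and gene lists were chosen with earlier results of these data known. The text names all 10 members, 6 regulators (Nr1h4, Nr0b2, Nr5a2, Hnf4a, Fgfr4 and Klb) whatever their values, up to 3 called genes of the largest difference in each other list, and up to 5 correlated pairs that passed. The other genes and pairs were chosen after their values were seen. Alternatives covered scaling, a filter on the dimmest 40% of genes, probe sets, eBayes options, array weights, samples left out, a replicate block and a clock score. Leaving out NASH model 2 and 7 and the clock score were taken from earlier work on these data. For the other gene lists, spike-in centring, the omission of NASH model 2 and 7 and the clock score were added after seeing the data. Promoter sequences are from RefSeq (GRCm38.p6).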

Additional observations from a re-analysis of the deposited data

Results flagged for a closer look

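Cyp7a1 in NASH model 2 stood at 6.40 on the log2 scale, against 8.30 to 9.52 in the other 7 NASH model samples. The gap to its nearest neighbour took up a share of 0.609 of the group's whole range, beyond Dixon's 95% limit for 8 samples. It was the single value so marked among 32 groups of 8 samples, covering 16 genes (the 10 enzymes and 6 regulators) in both conditions. Chance marks about 1 in 20 such groups.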

How the results depend on the processing

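The 7 falls and 1 rise among the enzymes were counted again under 29 alternatives, which gave 6 to 8 falls and 1 rise. Cyp7a1 reversed with the clock score as a covariate, to -0.49, and its differences otherwise ran from 0.30 without NASH model 1a and 1b to 0.95 without NASH model 2 and 7; the cause was not tested. Cyp8b1 minus Cyp7a1 ran from -1.41 to -1.01 when 1 sample was left out and was -1.05 (exact adjusted p = 0.0922) without NASH model 1a and 1b, where fewer samples entered. The other 4 pairs kept their calls under every alternative run. Whether the label numbers pair samples across the groups is not stated. For numbers 3 to 7, deviations of same-numbered samples correlated over all genes between -0.0235 and 0.0588. That does not show that samples were unpaired, and number 1 was not in this check. With the number as a replicate block 7 enzymes fell and 1 rose, Nr5a2 was not called, and over all genes 2063 were higher and 1861 lower, against 2577 and 2619 without it. In that fit Cyp7a1 stood at 0.56 ± 0.24 (limma adjusted p = 0.13), against an SE of 0.42 without the block. Centring on array medians moved the median of all genes to -0.12 and gave 2355 higher and 3646 lower genes, while centring on spike-in controls gave 3307 and 1179. With the clock score 1523 were higher and 1254 lower. In the lists, the clock score took the higher transporters from 5 to 3, the pericentral falls from 4 to 2, and the clock genes themselves from 5 higher to 0. Signal over background limits genes with samples below the floor in either group, such as Ch25h, Gpbar1, Cyp2b9, Hsd3b5, Elovl3 and Slco1a1.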
